A study of Mus musculus with 16 samples.

Results

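Homeostatic microglia genes are a set of 10 genes that resident microglia of the healthy brain transcribe at high levels: P2ry12, P2ry13, Tmem119, Cx3cr1, Gpr34, Sall1, Fcrls, Olfml3, Selplg and Slc2a5. They were chosen by name, as the rows of the deposited count table that carry these symbols, and make up 10 of its 55487 genes. The libraries came from right hippocampi of female mice, 40 weeks old and perfused with PBS, with 4 libraries for each of 4 genotypes. T mice carry PS19, a transgene for the 1N4R form of human tau with the P301S mutation under the PrP promoter, and have intact Ch25h, the gene of cholesterol 25-hydroxylase. TCKO mice carry PS19 and lack Ch25h, CKO mice lack Ch25h without the transgene, and WT mice have neither change. The design asks how each gene differs with the tau transgene, with loss of Ch25h, and with both.

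Microglia are the resident macrophages of the brain, and in the healthy tissue they survey it with motile processes. Signals from neurons and other brain cells, among them CX3CL1, TGF-beta, CSF1 and IL-34, are known to maintain their survival and their tissue-specific programme, of which these genes are the usual markers. In neurodegeneration models microglia multiply and many take on a disease-associated state, in which several homeostatic markers are known to be lower per cell. In bulk tissue, fewer cells of a type and less RNA per cell cannot be told apart.

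Library totals ran from 15064309 to 34348284 reads, and all 10 genes had reads in all 16 libraries and passed the filter on low counts. The fewest reads for any of them were 102 for Sall1 and 109 for Slc2a5, and the most for P2ry12 were 4023. Ch25h had 132.9 to 299.6 reads in T libraries, 0 to 1 in TCKO libraries, 0 to 2 in CKO libraries and 18 to 39.7 in WT libraries, so the labels and the deleted gene went together. The summed level of 4 neuronal genes was 3312 to 4949 CPM (counts-per-million, scaled by the TMM method) in T, 4214 to 6652 in TCKO, 5984 to 6361 in CKO and 4964 to 5765 in WT libraries, and 2 of the 4 fell in T against WT. Genes of other cells differed as well. The 4 astrocyte genes summed to 6943 to 10381 CPM in T, 1845 to 4570 in TCKO, 1393 to 1587 in CKO and 1699 to 2207 in WT libraries, and 3 of the 4, Gfap, Aqp4 and Aldh1l1, rose in T against WT and fell in TCKO against T. The 4 oligodendrocyte genes summed to 8327 to 18207 CPM in T, 10813 to 14624 in TCKO, 4381 to 7220 in CKO and 2898 to 12678 in WT libraries, and 1 rose in T against WT. The 6 genes of vessels and fibroblasts summed to 85.3 to 121 CPM in T, 65.6 to 73.5 in TCKO, 51.9 to 244 in CKO and 74.5 to 347 in WT libraries, and 2 rose in T against WT and 1 fell in TCKO against T. The 6 T cell genes summed to 22.6 to 64.0 CPM in T, 0.585 to 7.41 in TCKO, 0.257 to 3.64 in CKO and 1.42 to 3.80 in WT libraries, with Cd3d without reads in CKO. The 11 genes of border macrophages and monocytes summed to 18.2 to 49.3 CPM in T, 6.44 to 9.02 in TCKO, 4.47 to 10.3 in CKO and 10.1 to 12.3 in WT libraries, all with reads in every genotype. Of the T cell genes 6 rose in T against WT and 5 fell in TCKO against T, and of the border macrophage and monocyte genes 4 rose and 5 fell. Over all genes tested, 13% were called higher and 11.2% lower in T against WT, and 8.05% lower in TCKO against T. The part of these other cells in the results below was not tested. T replicate 4 and WT replicate 1 stood apart with 7252 and 7008 CPM of choroid plexus genes. TCKO replicate 4 stood apart in base composition. For this measure each gene was centred on its own mean over the 16 libraries, so values are shifts from the average library. In TCKO replicate 4 the median shift of GC-rich transcripts was 0.51 above that of GC-poor ones, in log2 units. This difference was 0.04 to 0.25 in T libraries and -0.08 to 0.17 in the other TCKO libraries. It was -0.32 to 0.005 in CKO and -0.30 to -0.001 in WT libraries.

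P2ry12 and P2ry13 code for neighbouring ADP receptors on chromosome 3, P2ry12 at chr3:59216272-59262871 and P2ry13 at chr3:59207892-59210882, both on the minus strand of GRCm38, with 5389 bases between them. The start regions of these receptors are shown because the pair, side by side in the genome, differed in their response to the transgene. Those of Fcrls and Cx3cr1 are shown because these genes had the largest log2 fold changes of the set with the transgene. Each sequence runs from 250 bases before to 50 bases after the gene's start and is read 5′ to 3′ on the gene's strand, here the minus strand in all 4 cases, from RefSeq on GRCm38.p6. Capitals mark matches to 2 motifs searched on both strands. The first is GAGGAAG, the core with flanking bases of sites of PU.1, a transcription factor of myeloid cells. The second is a loose palindromic pattern for MEF2 sites, CTA and TAG with any 4 bases between them. The interferon response element, GAAA and GAAA with any 2 bases between them, had no match in these windows.
P2ry12 (chr3:59262936-59263235): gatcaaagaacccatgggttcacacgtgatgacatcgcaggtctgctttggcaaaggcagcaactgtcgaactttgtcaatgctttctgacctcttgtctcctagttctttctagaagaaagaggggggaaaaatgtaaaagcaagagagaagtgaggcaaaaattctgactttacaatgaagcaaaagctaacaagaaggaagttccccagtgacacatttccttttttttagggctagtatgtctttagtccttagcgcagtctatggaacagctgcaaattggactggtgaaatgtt
P2ry13 (chr3:59210833-59211132): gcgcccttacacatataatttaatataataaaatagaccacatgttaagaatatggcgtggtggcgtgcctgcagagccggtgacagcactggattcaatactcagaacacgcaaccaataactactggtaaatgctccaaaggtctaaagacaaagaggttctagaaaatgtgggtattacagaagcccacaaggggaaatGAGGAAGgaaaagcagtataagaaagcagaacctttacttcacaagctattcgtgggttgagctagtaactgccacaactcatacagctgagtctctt
Fcrls (chr3:87263475-87263774): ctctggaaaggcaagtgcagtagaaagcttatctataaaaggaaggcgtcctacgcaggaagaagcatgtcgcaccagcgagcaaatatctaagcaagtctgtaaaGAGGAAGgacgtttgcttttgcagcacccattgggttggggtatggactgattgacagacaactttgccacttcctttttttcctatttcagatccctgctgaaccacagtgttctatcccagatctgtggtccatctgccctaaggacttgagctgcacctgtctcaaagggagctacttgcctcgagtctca
Cx3cr1 (chr9:120068247-120068546): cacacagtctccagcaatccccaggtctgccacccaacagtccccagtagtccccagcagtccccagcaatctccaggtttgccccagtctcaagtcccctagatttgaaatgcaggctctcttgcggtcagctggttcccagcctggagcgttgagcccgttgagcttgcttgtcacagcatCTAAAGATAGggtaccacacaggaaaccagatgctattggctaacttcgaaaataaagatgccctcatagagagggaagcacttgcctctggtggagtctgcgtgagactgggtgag

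The PU.1 letters stood in P2ry13 between bases -48 and -42 from the start and in Fcrls between -144 and -138, and those of MEF2 in Cx3cr1 between -67 and -58. None of the 3 motifs was found in the P2ry12 window. Shorter or variant forms, such as the PU.1 core without its flanks, were not searched, so P2ry12 cannot be said to lack such sites. RefSeq windows were at hand for 7 of the 10 genes, and the windows of Sall1, Olfml3 and Slc2a5 held no match either; Tmem119, Gpr34 and Selplg were not among them. Of 32851 mouse promoters of the same length, 13.6% held the PU.1 letters, 3.69% those of MEF2 and 3.44% those of the interferon response element. A match describes these letters only and is not evidence of binding.

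In hippocampi with the tau transgene and intact Ch25h, 8 of the 10 genes rose: T libraries had between 1.65 times (Selplg) and 3.93 times (Fcrls) the WT level. P2ry12 and Slc2a5, the ADP receptor and the fructose transporter, did not pass the test and had log2 fold changes below 0. Over all 18565 genes tested, 24.2% were called by the same edgeR quasi-likelihood test, 13% higher and 11.2% lower, and the median log2 fold change was 0.86 for the 10 genes against -0.01 for all genes. None of the 10 was called lower by edgeR, DESeq2 or limma, and 0 were lower at an unadjusted p under 0.05, against 17.9% of all genes. The libraries of T and WT did not overlap for 8 of the 10 genes, against 25.1% of all genes. Each of the 8 calls held under every alternative setting tried. No label states that replicates are separate mice, so the p-values measure only the spread between these libraries, which may be technical.

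**Figure D1:**
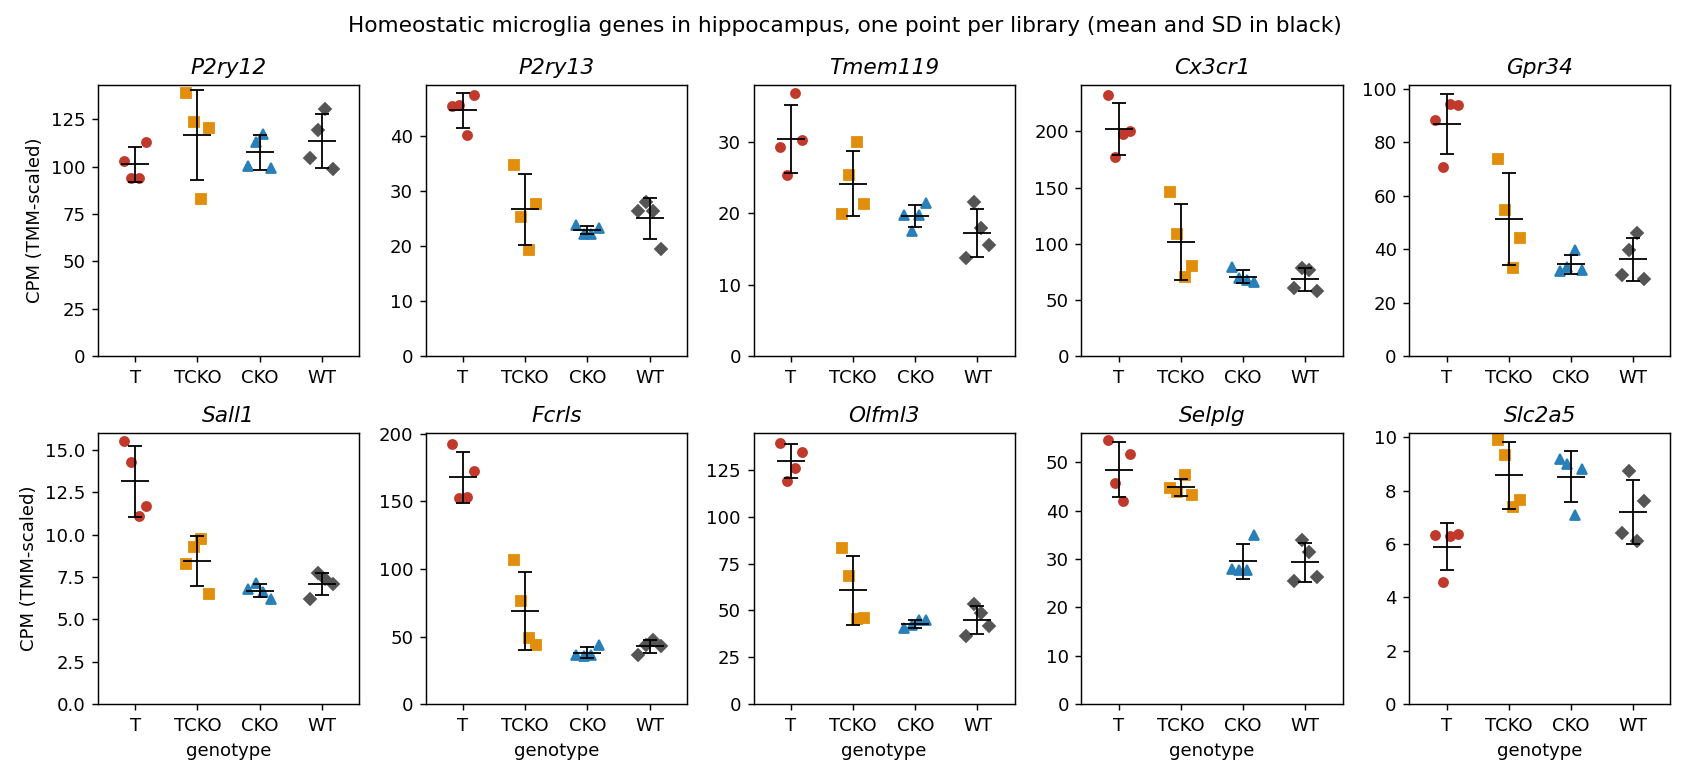
Levels of the 10 genes in each library, in TMM-scaled CPM on linear axes that start at 0, with the mean and SD of each genotype (n = 4) in black. For Fcrls the T libraries lie between 153 and 193 CPM, above the TCKO, CKO and WT libraries, whereas for P2ry12 the 4 genotypes overlap.

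The receptors for ADP divided. P2ry12, the Gi-coupled receptor that steers microglial processes toward sites where cells release ADP, had 103, 94.1, 94.2 and 113 CPM in T libraries, against 105, 119, 130 and 98.7 CPM in WT libraries. The groups overlapped, and its log2 fold change of -0.16 ± 0.13 (SE; adjusted p = 0.415, edgeR quasi-likelihood test) did not pass. P2ry13, a related Gi-coupled ADP receptor, had 45.3, 45.7, 40.0 and 47.4 CPM in T libraries, against 26.3, 27.9, 26.3 and 19.5 CPM in WT libraries. Every T library was above every WT library, and P2ry13 rose by 0.84 ± 0.15 on the log2 scale (adjusted p = 0.00069). The ratio of P2ry13 to P2ry12 CPM was 0.419 to 0.485 in T libraries, 0.204 to 0.250 in TCKO, 0.190 to 0.237 in CKO and 0.197 to 0.251 in WT libraries. The T libraries thus lay above all others in this ratio, and the remaining 3 genotypes overlapped.

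The chemokine and lipid receptors rose further. Cx3cr1 (chr9:119901616-120069879, minus strand), the receptor for the neuronal chemokine fractalkine, had 233, 177, 198 and 201 CPM in T libraries, against 60.8, 78.3, 76.4 and 58.4 CPM in WT libraries. The lowest T library was above all WT libraries by more than the range of the WT group, and the log2 fold change was 1.56 ± 0.18 (adjusted p = 1.28e-05). Gpr34 (chrX:13632089-13640858, plus strand), a receptor for lysophosphatidylserine, had 88.1, 70.5, 94.3 and 94.0 CPM in T libraries, against 30.3, 39.8, 45.9 and 28.7 CPM in WT libraries. Its groups did not overlap either, with a log2 fold change of 1.26 ± 0.20 (adjusted p = 0.000297).

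Sall1 (chr8:89027235-89044162, minus strand), a zinc finger transcription factor that among brain cells marks and maintains microglial identity, had the lowest mean level per length of the 10 genes in every genotype. The mean was 3.31 TPM in T, 2.22 in TCKO, 1.84 in CKO and 1.78 in WT libraries (transcripts-per-million, a deposited unit that divides by length). In T libraries Slc2a5 was close, at a mean of 3.50 TPM, and lay below Sall1 in T replicates 3 and 4. Sall1 had 15.5, 14.3, 11.1 and 11.7 CPM in T libraries, against 6.23, 7.74, 7.38 and 7.10 CPM in WT libraries. The groups did not overlap, and it rose by 0.89 ± 0.15 on the log2 scale (adjusted p = 0.000495).

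Fcrls and Olfml3, a surface receptor and a secreted protein, both rose. Fcrls (chr3:87250758-87263738, minus strand), a scavenger receptor of the Fc receptor-like family known in mouse microglia, had 193, 153, 153 and 172 CPM in T libraries, against 36.6, 43.7, 47.7 and 42.9 CPM in WT libraries, a log2 fold change of 1.97 ± 0.21 (adjusted p = 6.47e-06). Olfml3 (chr3:103722222-103738001, minus strand), a secreted olfactomedin-like glycoprotein, had 139, 119, 126 and 134 CPM in T libraries, against 36.3, 53.4, 48.7 and 41.5 CPM in WT libraries, a log2 fold change of 1.53 ± 0.17 (adjusted p = 7.67e-06). In both genes the T libraries lay far above the WT libraries without overlap.

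Tmem119 and Selplg, neighbours on the minus strand of chromosome 5 (chr5:113793729-113800516 and chr5:113818536-113832644) with 18019 bases between them, rose less. Tmem119, a transmembrane protein used to tell microglia from other macrophages, had 29.3, 25.3, 36.8 and 30.2 CPM in T libraries, against 13.8, 21.6, 17.9 and 15.5 CPM in WT libraries, a log2 fold change of 0.82 ± 0.16 (adjusted p = 0.00135). Selplg, the P-selectin glycoprotein ligand of leukocytes, had 54.6, 45.7, 41.9 and 51.7 CPM in T libraries, against 25.5, 33.9, 31.5 and 26.3 CPM in WT libraries, a log2 fold change of 0.72 ± 0.12 (adjusted p = 0.000287). Neither gene had a T library within the WT range. T cells also express Selplg, and the summed T cell genes given above were likewise higher in T than in WT libraries. In TCKO libraries the T cell genes summed to 0.585 to 7.41 CPM, while Selplg had 43.2 to 47.4 CPM. The part of T cells in the result was not tested.

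Slc2a5 (chr4:150119283-150144169, plus strand), which codes for the fructose transporter GLUT5, was the other gene that did not pass. It had 6.34, 4.58, 6.30 and 6.37 CPM in T libraries, against 6.39, 8.72, 6.12 and 7.59 CPM in WT libraries. The groups overlapped, with T replicate 3 the lowest library of all, and the log2 fold change was -0.29 ± 0.16 (adjusted p = 0.226).

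Because the genes moved unequally, the make-up of the set differed between genotypes, on the deposited TPM scale, which allows levels of different genes to be compared. P2ry12 took 17.6 ± 1.38% of the summed TPM of the 10 genes in T libraries, 31.2 ± 3.94% in TCKO, 38.1 ± 2.29% in CKO and 39.8 ± 1.26% in WT libraries (SD, n = 4 each). Fcrls took 21.9 ± 1.29% in T, 12.9 ± 2.82% in TCKO, 9.75 ± 1.00% in CKO and 10.4 ± 1.02% in WT libraries. Thus Fcrls was the most abundant of the genes per length in T libraries, at 99.96 ± 10.7 TPM, and P2ry12 was in the other genotypes, at 101 ± 20.2 TPM in TCKO, 97.5 ± 5.60 in CKO and 98.2 ± 11.2 in WT libraries. P2ry12 itself had 80.4 ± 9.99 TPM in T libraries. The sum over the set was 456 ± 32.9 TPM in T, 327 ± 67.6 in TCKO, 256 ± 6.50 in CKO and 247 ± 29.7 in WT libraries.

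**Figure D2:**
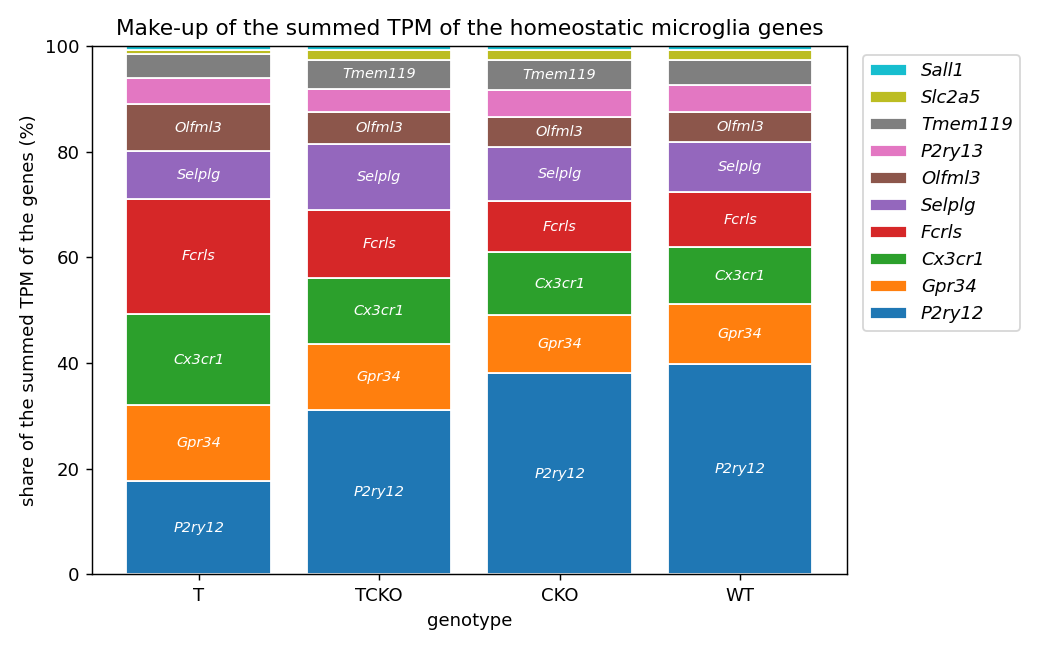
Mean share of each gene in the summed TPM of the 10 genes, in percent, by genotype (n = 4 libraries each). P2ry12 makes up 17.6% of the bar of T and 39.8% of that of WT, while Fcrls makes up 21.9% and 10.4%.

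Without Ch25h, tau hippocampi had lower levels of 6 of the 8 genes that were higher in T than in WT. In TCKO against T libraries Fcrls, Olfml3, Cx3cr1, Gpr34, P2ry13 and Sall1 fell, to between 0.412 times (Fcrls) and 0.642 times (Sall1) the T level. Slc2a5 rose to 1.45 times the T level, and Tmem119, Selplg and P2ry12 did not pass the test. Over all genes tested, 12.9% were called in this comparison, 8.05% lower and 4.81% higher, and the median log2 fold change was -0.69 for the 10 genes against 0.02 for all. The T libraries are shared with the comparison against WT, so the direction of a gene in one is not independent of its direction in the other. The libraries of TCKO and T did not overlap for 6 genes, P2ry13, Cx3cr1, Sall1, Fcrls, Olfml3 and Slc2a5, against 14.8% of all genes.

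Fcrls had 107, 76.6, 49.3 and 43.6 CPM in TCKO libraries, against the 153 to 193 CPM in T libraries, a log2 fold change of -1.28 ± 0.21 (adjusted p = 0.000585, edgeR quasi-likelihood test). Olfml3 had 83.1, 68.4, 45.5 and 46.1 CPM in TCKO libraries, against 119 to 139 CPM in T libraries, and fell by 1.09 ± 0.17 on the log2 scale (adjusted p = 0.000346). Cx3cr1 had 146, 109, 70.3 and 80.3 CPM in TCKO libraries, against 177 to 233 CPM in T libraries, and fell by 1.00 ± 0.18 (adjusted p = 0.00141). In these 3 genes TCKO replicate 2 was the highest TCKO library and replicates 4 and 5 were near the CKO level. The summed astrocyte genes were also highest in TCKO replicate 2 and lowest in replicates 4 and 5. The spread within TCKO was the widest of the 4 genotypes for them, with a coefficient of variation of 42.0% for Fcrls, 30.1% for Olfml3 and 33.5% for Cx3cr1, against 11.3%, 7.03% and 11.4% in T libraries.

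Gpr34 had 73.6, 54.7, 32.9 and 44.2 CPM in TCKO libraries, against 70.5 to 94.3 CPM in T libraries, a log2 fold change of -0.76 ± 0.20 (adjusted p = 0.0201). Its highest TCKO library lay within the T range, and the call was lost without T replicate 2 (adjusted p = 0.0539), without T replicate 4 (0.0525) or without TCKO replicate 5 (0.0699). P2ry13 had 34.7, 25.2, 19.2 and 27.5 CPM in TCKO libraries, against 40.0 to 47.4 CPM in T libraries, and fell by 0.74 ± 0.15 (adjusted p = 0.00304). Sall1 had 8.28, 9.28, 9.75 and 6.48 CPM in TCKO libraries, against 11.1 to 15.5 CPM in T libraries, and fell by 0.64 ± 0.15 (adjusted p = 0.0101). Both lay below the T range in every TCKO library.

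Slc2a5 went the other way. It had 9.89, 9.35, 7.38 and 7.65 CPM in TCKO libraries, against 4.58 to 6.37 CPM in T libraries, without overlap, and rose by 0.54 ± 0.16 on the log2 scale (adjusted p = 0.0412). That call was the least secure of the 7. It was lost when any 1 of 10 libraries was left out, namely T replicates 2, 3 and 4, TCKO replicates 2, 3 and 5, CKO replicates 1, 2 and 5 and WT replicate 5, with adjusted p between 0.0501 and 0.133.

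Tmem119, Selplg and P2ry12 showed no called difference between TCKO and T. Tmem119 had 19.95, 25.4, 30.0 and 21.3 CPM in TCKO libraries, against 25.3 to 36.8 CPM in T libraries, a log2 fold change of -0.33 ± 0.16 (adjusted p = 0.177). TCKO replicate 4, the library with the raised GC-rich transcripts, was the highest TCKO library for Tmem119 and the lowest for Gpr34, whose longest transcripts have a GC content of 59.1% and 37.1%, at the percentiles 94.3 and 2.44 of the genes tested. With a correction for GC content, added after the data were seen, the log2 fold change was -0.35 for Tmem119 (adjusted p = 0.124) and -0.72 for Gpr34 (adjusted p = 0.0338). In T against WT the correction lowered the value of Tmem119 from 0.82 to 0.64 (adjusted p = 0.00426, edgeR quasi-likelihood test). It raised that of Gpr34 from 1.26 to 1.31 (adjusted p = 0.000321). Selplg had 44.6, 43.8, 47.4 and 43.2 CPM in TCKO libraries, against 41.9 to 54.6 CPM in T libraries, a log2 fold change of -0.11 ± 0.12 (adjusted p = 0.56). P2ry12 had 139, 123, 83.0 and 120.3 CPM in TCKO libraries, against 94.1 to 113 CPM in T libraries, a log2 fold change of 0.20 ± 0.13 (adjusted p = 0.348).

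**Figure D3:**
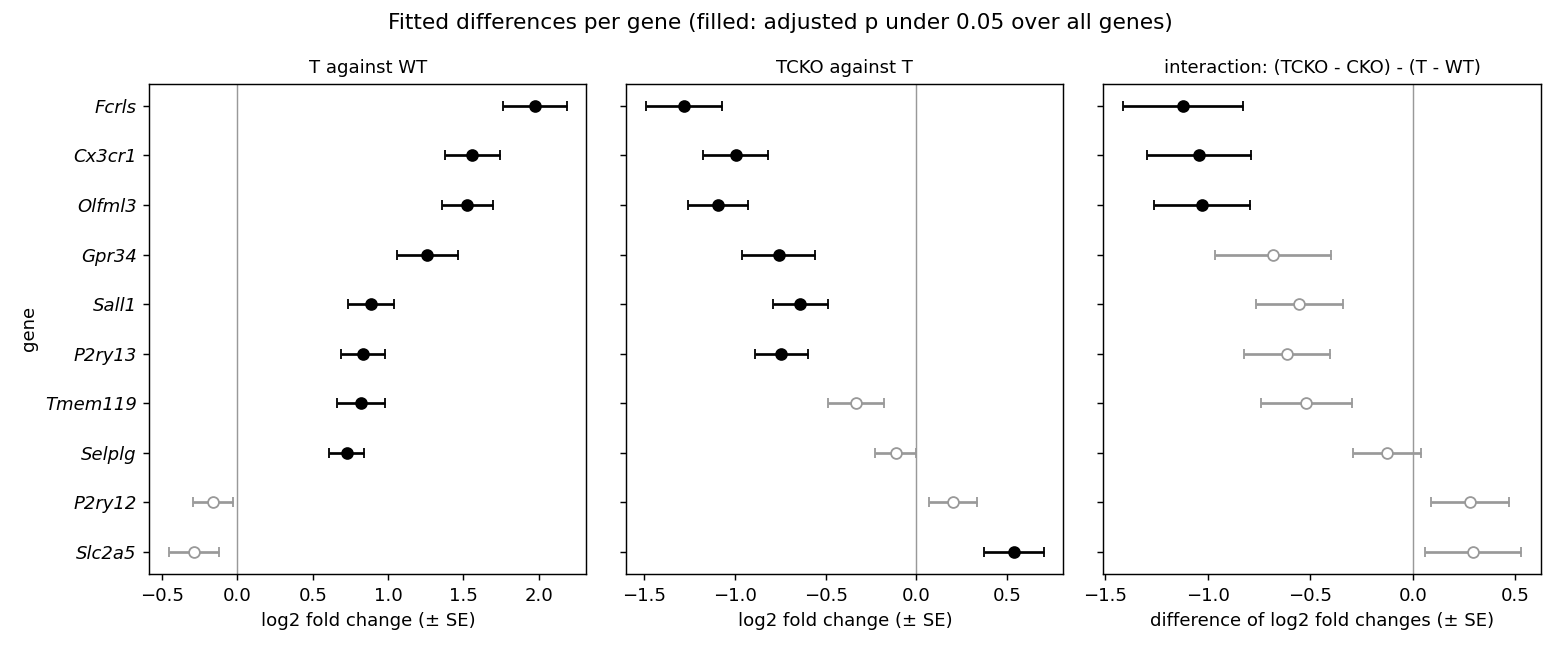
Fitted log2 fold changes of the 10 genes (± SE) for T against WT, TCKO against T and the interaction, with filled points for an adjusted p under 0.05 over all genes. Fcrls has the largest value in each panel, 1.97, -1.28 and -1.12, while P2ry12 is unfilled in all 3.

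Whether the response to the transgene depended on Ch25h was tested by the interaction, the tau response without Ch25h (TCKO against CKO) minus that with Ch25h (T against WT). It passed for 3 of the 10 genes, Cx3cr1, Olfml3 and Fcrls, all below 0, against 3.15% of all genes in either direction and 2.45% below 0. The difference was -1.04 ± 0.25 for Cx3cr1 (adjusted p = 0.0334), -1.03 ± 0.24 for Olfml3 (adjusted p = 0.0252) and -1.12 ± 0.29 for Fcrls (adjusted p = 0.0471, edgeR quasi-likelihood test). The other 7 did not pass, with values below 0 for Gpr34 (-0.68), P2ry13 (-0.61), Sall1 (-0.55), Tmem119 (-0.52) and Selplg (-0.13) and above 0 for P2ry12 (0.28) and Slc2a5 (0.29). At an unadjusted p under 0.05 the count was 7 of 10, all below 0, against 10.1% of all genes below 0 at that threshold.

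These 3 calls rested on the full set of libraries. Leaving out 1 library left between 0 and 4 of the 10 genes called, and 0 remained called without T replicate 4 and WT replicate 1, the libraries rich in choroid plexus genes. Olfml3 was lost without T replicate 2, TCKO replicate 5, CKO replicates 4 or 5 or WT replicate 5, with adjusted p between 0.0511 and 0.0594. Cx3cr1 was lost without T replicates 2 or 4, TCKO replicate 5, any CKO replicate or WT replicates 1 or 5, with adjusted p between 0.052 and 0.0807. Fcrls was lost when any 1 library other than T replicate 5 or TCKO replicate 2 was left out, with adjusted p between 0.055 and 0.106. Their log2 differences stayed below 0 in every alternative. Without TCKO replicate 2, P2ry13 was called as well, at -0.76 (adjusted p = 0.0363).

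In TCKO against CKO, which gives the tau response without Ch25h, only Selplg was called by edgeR, against 0.35% of all genes called higher and 0.539% in either direction. Selplg had 43.2 to 47.4 CPM in TCKO libraries, against 27.9, 27.6, 27.7 and 34.9 CPM in CKO libraries, a log2 fold change of 0.60 ± 0.12 (adjusted p = 0.0301). All TCKO libraries were above all CKO libraries, but the call was lost without TCKO replicates 2 or 3 or CKO replicates 1, 2 or 4, with adjusted p between 0.0584 and 0.104. All 10 fitted values were above 0, from 0.00 for Slc2a5 to 0.85 ± 0.21 for Fcrls, whose adjusted p was 0.0682, and 6 genes were higher at an unadjusted p under 0.05, against 10.4% of all genes. Between these values lay Gpr34 (0.58), Cx3cr1 (0.52), Olfml3 (0.50), Sall1 (0.34), Tmem119 (0.30), P2ry13 (0.22) and P2ry12 (0.12). Fcrls was called without TCKO replicate 4 (0.98, adjusted p = 0.0364) or without TCKO replicate 5 (1.02, adjusted p = 0.0212). TCKO and CKO libraries did not overlap for Selplg and Olfml3, against 10.3% of all genes.

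TCKO against WT gave the same single called gene, against 0.183% of all genes called higher and 0.302% in either direction. Selplg was 0.61 ± 0.12 higher in TCKO on the log2 scale (adjusted p = 0.0364, edgeR quasi-likelihood test), without overlap (7.47% of all genes), and the call was lost without any 1 of the TCKO replicates, without CKO replicate 2 or without WT replicates 1, 4 or 5, with adjusted p between 0.0504 and 0.162. T cell genes summed to 4.16, 7.41, 1.67 and 0.585 CPM in TCKO replicates 2 to 5, against 1.42 to 3.80 CPM in WT libraries, and their part in the result was not tested. The fitted values of the other 9 genes were 0.69 for Fcrls, 0.57 for Cx3cr1, 0.50 for Gpr34, 0.49 for Tmem119, 0.43 for Olfml3, 0.25 for Sall1 and for Slc2a5, 0.09 for P2ry13 and 0.04 for P2ry12, with adjusted p of 0.151 or more. At an unadjusted p under 0.05, 6 of the 10 genes were higher, against 8.53% of all genes.

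Loss of Ch25h without the transgene left no called difference in any of the 10 genes. In CKO against WT, 0 of 10 were called by edgeR, DESeq2 or limma, 0 had an unadjusted p under 0.05 (11.3% of all genes), and the smallest unadjusted p was 0.157, for Slc2a5. Over all genes tested 0.0108% were called by edgeR, which is 2 genes. The fitted log2 fold changes lay between -0.16 ± 0.21 (Fcrls) and 0.24 ± 0.16 (Slc2a5), with P2ry13 at -0.13, Sall1 at -0.09, P2ry12 and Gpr34 at -0.08, Olfml3 at -0.06, Selplg at 0.01, Cx3cr1 at 0.05 and Tmem119 at 0.19, and 0 genes had non-overlapping libraries, against 8.94% of all genes.

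By mean CPM, T ranked highest and TCKO next for 8 genes; for P2ry13, Cx3cr1, Sall1, Fcrls and Olfml3 the libraries of T and TCKO lay apart, and those of the lower 3 genotypes overlapped between neighbours. For Tmem119 and Gpr34 all neighbours in the order overlapped. For Selplg T and TCKO overlapped and TCKO and CKO lay apart. For P2ry12 and Slc2a5 TCKO ranked highest and T lowest, with overlap between all neighbours.

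A second fit scaled each library to the geometric mean of 6 pan-microglial genes, which microglia express in the homeostatic and in the disease-associated state. With TMM scaling all 6 rose in T against WT (median log2 fold change 1.94), against 13% of all genes. All 6 fell in TCKO against T (median -1.31), against 8.05% of all genes. In T against WT the smallest p were those of Csf1r (1.72 ± 0.15), Spi1 (3.77 ± 0.33) and Aif1 (2.5 ± 0.22). Spi1 was near the floor in WT libraries, with 11 to 28 reads and a mean of 0.71 CPM, against 9.74 CPM in T. The 6 genes moved unequally, so the sizes of the relative values below depend on which genes serve as the reference. The ratio of a gene to the 6 shows unequal change only, not a level per cell. On this scale P2ry12 stood at -0.20, 0.01, -0.08 and 0.24 (log2 of the gene over the 6) in T libraries, against 2.30 to 2.46 in WT libraries. Slc2a5 stood at -4.33 to -3.89 in T libraries, against -2.01 to -1.22 in WT libraries. Both lay far below the WT range in every T library, and their relative log2 fold changes were -2.42 ± 0.18 for P2ry12 and -2.57 ± 0.23 for Slc2a5. Selplg (-1.54 ± 0.19), Tmem119 (-1.43 ± 0.22), P2ry13 (-1.42 ± 0.20), Sall1 (-1.39 ± 0.21), Gpr34 (-0.98 ± 0.18), Olfml3 (-0.73 ± 0.16) and Cx3cr1 (-0.70 ± 0.16) were also called lower relative to the 6 genes. Fcrls, at -0.30 ± 0.17 (adjusted p = 0.101, edgeR quasi-likelihood test), was not.

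The count of 9 of 10 lower on that scale says little by itself, since 92.5% of all genes were called lower and the median of all genes was -2.29, against -1.40 for the 10. The rescaling moves every gene by nearly the same amount, so the order of the 10 is that of the TMM-scaled values and adds nothing to it. With Csf1r alone in place of the 6, Fcrls stood at 0.24 and was not called, and Cx3cr1 and Olfml3 lost their calls. The other called genes, P2ry12 and Slc2a5 among them, kept theirs. In TCKO against T, 9 of 10 were higher relative to the 6 genes, against 84.3% of all genes, from 0.38 ± 0.16 for Olfml3 to 1.72 ± 0.18 for P2ry12 and 2.05 ± 0.23 for Slc2a5, and Fcrls (0.17 ± 0.17) was not called. Olfml3 lost that call without T replicates 2, 3 or 4 or TCKO replicate 2 (adjusted p between 0.0547 and 0.0817), and with Csf1r alone it stood at -0.04 and Fcrls at -0.25. P2ry12 stood at 1.43 to 2.16 in TCKO, 2.14 to 2.34 in CKO and 2.30 to 2.46 in WT libraries. On this scale 3 of the 10 genes were lower in TCKO against CKO (48.6% of all genes), 4 in TCKO against WT (54.8%) and 0 in CKO against WT (0.00539%), and 8 had an interaction above 0 (77.4%), counts that again lay near or below those of all genes.

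**Figure D4:**
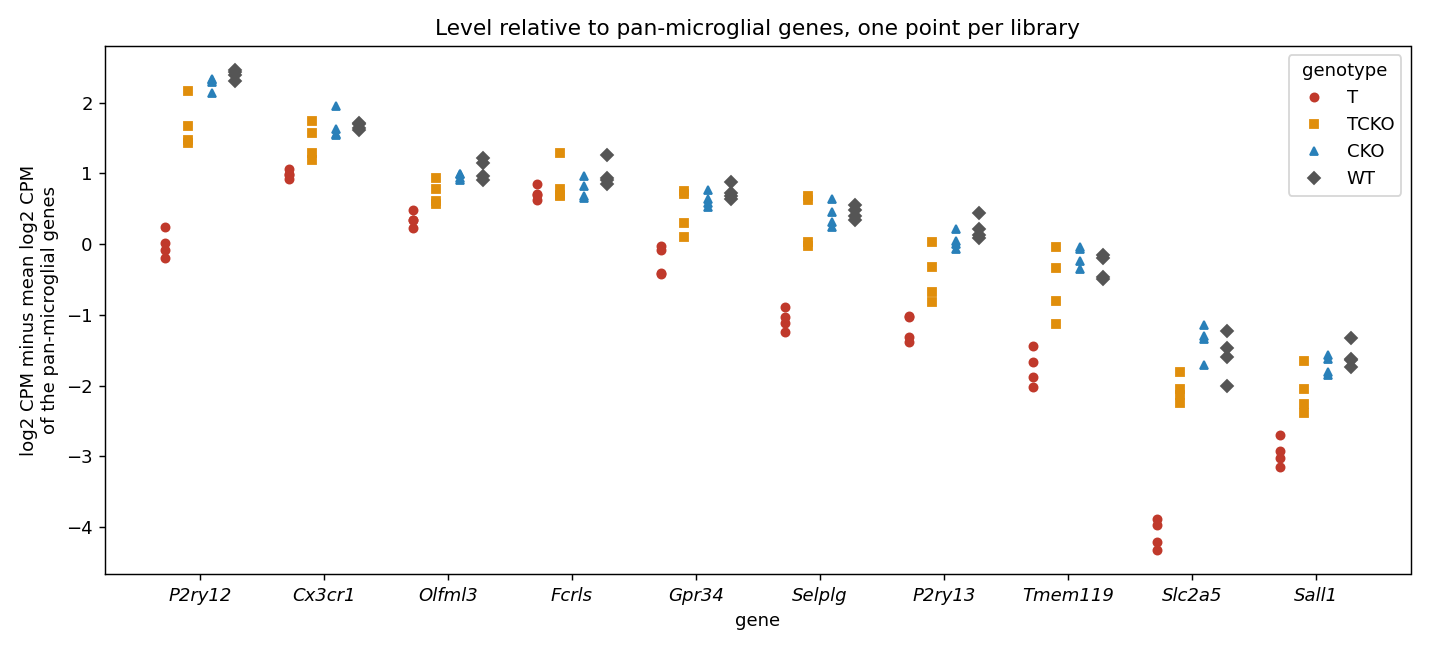
Log2 CPM of each gene minus the mean log2 CPM of 6 pan-microglial genes, one point per library. For P2ry12 the T libraries lie between -0.20 and 0.24 and the WT libraries between 2.30 and 2.46, while for Fcrls T (0.62 to 0.85) and WT (0.85 to 1.26) almost meet.

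Other genes of the same pathways gave a setting for these values. Some genes stand in more than 1 list, so the lists are not independent of each other. Over all genes tested, 13% were called higher and 11.2% lower in T against WT. In TCKO against T, 8.05% were called lower and 4.81% higher. Of 16 further homeostatic microglia genes, 11 rose in T against WT, with the smallest p for Lag3 (4.16 ± 0.26), Csf1r (1.72 ± 0.15) and Tgfbr1 (1.37 ± 0.13). In the same comparison 1 fell, Crybb1 (-1.05 ± 0.27), named after its value was seen. In TCKO against T, 9 of the 16 fell and Crybb1 rose (0.95 ± 0.27). Of 10 genes of nucleotide sensing and breakdown beside P2ry12 and P2ry13, 6 rose in T against WT. Those with the smallest p were the UDP receptor P2ry6 (1.97 ± 0.22), the ATP-gated channel P2rx7 (1.22 ± 0.17) and the ectonucleotidase Entpd1 (1.04 ± 0.17), which degrades ATP and ADP. In TCKO against T, 5 of the 10 fell, again including Entpd1 (-1.13 ± 0.17) and P2ry6 (-1.38 ± 0.22), and Adora3 (-1.56 ± 0.29).

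For the lists that follow, the shares over all genes were again 13% higher in T against WT and 8.05% lower in TCKO against T. Among ligands and receptors of the fractalkine, TGF-beta and CSF1R pathways, 5 of 11 tested rose in T against WT. The receptors Csf1r, Tgfbr2 (2.30 ± 0.21) and Tgfbr1 (1.37 ± 0.13) had the smallest p. Cx3cl1, the ligand of Cx3cr1, had a log2 fold change of -0.05 ± 0.12 (adjusted p = 0.832, edgeR quasi-likelihood test) in T against WT. By the same test it rose by 0.48 ± 0.12 in TCKO against T (adjusted p = 0.0146), where its receptor fell. The 2 did not move in opposite directions elsewhere. In CKO against WT Cx3cl1 stood at 0.37 ± 0.12, not called, and Cx3cr1 at 0.05. In TCKO against CKO Cx3cl1 stood at 0.07 and Cx3cr1 at 0.52, neither called. The 4 neuronal genes had a median log2 fold change of 0.375 in TCKO against T, and the part of neurons in the value of Cx3cl1 was not tested. Cx3cl1 was singled out as the ligand of Cx3cr1 after its values were seen. Of 10 microglial transcription factors other than Sall1, 6 rose in T against WT and the same count fell in TCKO against T. In T against WT the smallest p were those of Irf8 (3.64 ± 0.22) and Spi1, which codes for PU.1 (3.77 ± 0.33). All 12 disease-associated microglia genes rose in T against WT, with a median log2 fold change of 2.67, and all 12 fell in TCKO against T (median -1.98). In T against WT the smallest p, not the largest changes, were those of Axl (1.77 ± 0.14), Tyrobp (2.93 ± 0.26) and Trem2 (2.87 ± 0.26).

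Of the 10 genes, 3 lie within another gene. P2ry12 and P2ry13 lie inside Med12l and Gpr34 inside Cask, each on the opposite strand of its host. The library kit does not mark strand, so reads of a gene and of an overlapping partner cannot be told apart by strand. Med12l averaged 7.50 CPM in T, 8.54 in TCKO, 11.98 in CKO and 9.45 in WT libraries, and its log2 fold change in T against WT was -0.33 (adjusted p = 0.164, edgeR). Cask averaged 139 CPM in T, 165 in TCKO, 172 in CKO and 178 in WT libraries, and fell by 0.36 in T against WT (adjusted p = 0.0347). P2ry13 and Gpr34 thus had values in the direction opposite to their hosts, and P2ry12 (-0.16) in the same direction as Med12l; the part of host reads in these values was not tested. The annotated span of Cx3cr1 also takes in part of Wdr48, which fell by 0.56 in T against WT (adjusted p = 0.00226, edgeR). It holds the whole of Gorasp1 (0.07), Csrnp1 (0.17) and Ttc21a (-0.19), which did not pass. It also overlaps 5 loci that did not pass the filter on low counts.

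Profiles over the 16 libraries were compared by the root mean square difference of their centred log2 CPM, as a description. Olfml3 and Cx3cr1 were closest, at 0.12, followed by Cx3cr1 and Gpr34 at 0.18 and Olfml3 and Gpr34 at 0.19, and Tmem119 and Selplg were 0.22 apart. Slc2a5 and Fcrls were farthest apart, at 1.05, and P2ry12 was nearer to Slc2a5 (0.28) than to its neighbour P2ry13 (0.45). Over all genes tested, Slc2a5 ranked 4805 and P2ry13 ranked 10504 in nearness to P2ry12, so neither was among its closest profiles.

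**Figure D5:**
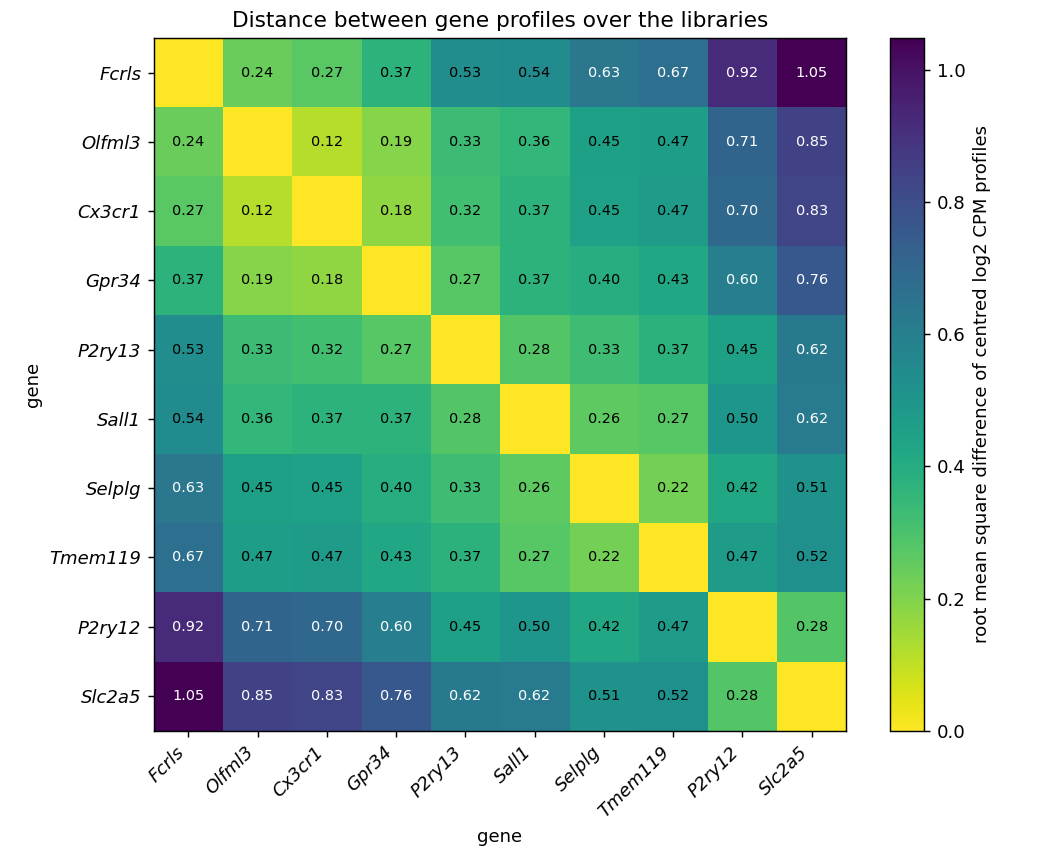
Root mean square difference between the centred log2 CPM profiles of each pair of the 10 genes over 16 libraries, with light cells for similar profiles. Olfml3 and Cx3cr1 are closest at 0.12 and Slc2a5 and Fcrls farthest at 1.05.

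Over all genes tested, the profiles nearest to Olfml3 were those of Csf1r (0.11), Tgfbr1 (0.12) and Inpp5d (0.12). Nearest to Cx3cr1 were Inpp5d (0.12), Olfml3 (0.12) and Csf1r (0.14), and among the nearest to Fcrls were Laptm5 (0.15) and Slc14a1 (0.17). Gpr34 was nearest to Rida (0.17), Cx3cr1 (0.18) and Gpam (0.18). P2ry13 was nearest to Shisa5 (0.15), Lxn (0.16) and Scamp2 (0.17), Sall1 to Tln1 (0.14), Ddah1 (0.14) and Scarb2 (0.14), Tmem119 to Natd1 (0.17), Bnip2 (0.17) and Slc38a10 (0.19), and Selplg to Mpzl1 (0.15), Szrd1 (0.15) and Nacc2 (0.16). The nearest profiles of Olfml3, Cx3cr1 and Fcrls thus included pan-microglial genes, and those of the other 5 did not.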

How the data were processed

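RNA of right hippocampi was measured in 16 libraries, 4 for each of 4 genotypes. Per the labels' protocols they were prepared with the SMARTer Ultra Low kit, which primes with oligo-dT. The submitters' processing notes name bcl2fastq, STAR 2.5.1a, Subread, featureCounts 1.4.6-p5 and GRCm38, without roles. The authors deposited estimated counts per Ensembl gene in a table of the series, and estimated counts and TPM in a file per sample, per the file headers; all 887792 values of the table equalled the per-sample counts within 0.01 reads. Which program made them is not stated, so how it treated reads shared by near-identical or overlapping genes is unknown.

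The estimated counts were rounded to whole numbers. The 55774 lines of the table hold 55487 genes, each kept once. Genes with low counts were removed by filterByExpr, leaving 18565. The main test was the edgeR 4.0.16 quasi-likelihood F-test in R 4.3.3 with TMM scaling and one mean per genotype over all 16 libraries, with Benjamini-Hochberg adjustment over all genes tested and a threshold of 0.05. The SE of a log2 fold change is its size divided by the square root of F. Levels are CPM with TMM scaling, and TPM was used only to compare genes. A second fit replaced TMM by the geometric mean of 6 pan-microglial genes. Values of some single genes, and a scaling to one of them alone, are not reported here. Tests were tried first on simulated counts. Alternatives were DESeq2 1.42.0, limma 3.58.1 (voom), RLE and upper-quartile factors, other filters on low counts, only the compared libraries, a replicate block, leaving out each library and leaving out the libraries rich in choroid plexus genes; a correction for GC content was added after the data were seen. No column of the table was left unused.

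The 10 genes are named in every comparison. From the lists of related pathways counts are given, with up to 3 genes of the smallest p named, and from those of other cell types summed levels and counts. Also named are genes overlapping the 10, and the 3 nearest profiles of each gene called in T against WT or in the interaction. The 10 genes and all lists were chosen with earlier results of these data known. The labels do not say what a replicate number stands for. For T against WT the correlations of the deviations of same-numbered libraries from their group means were 0.121, 0.137 and 0.304. All were above 0.1, so the numbers may pair the libraries of that comparison, judged from the data alone. The main fit, which gave the p-values for that comparison, had no replicate block. With the block, fitted as an alternative, no call of the 10 genes changed there. No pair of replicate libraries agreed within sampling noise, the lowest chi-square per degree of freedom being 10.2. Both the number of libraries, 4 for each genotype, and the depth of 15064309 to 34348284 reads limit the precision.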

Additional observations from a re-analysis of the deposited data

Results flagged for a closer look

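The response to the tau transgene differed with and without Ch25h for 3 genes by the test of the difference itself (edgeR, tau response without Ch25h minus that with Ch25h, in log2 units): Fcrls at -1.12, Olfml3 at -1.03 and Cx3cr1 at -1.04. In T against WT these genes had log2 fold changes of 1.97, 1.53 and 1.56, and in TCKO against CKO 0.85, 0.50 and 0.52. T cell, border macrophage and astrocyte genes were also highest in T libraries, at 22.6 to 64.0, 18.2 to 49.3 and 6943 to 10381 CPM in sum, and their part in the result was not tested.

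A single library stood far from the other 3 of its genotype in 3 of the 40 groups examined, where chance alone gives about 1 in 20. CKO replicate 5 was the highest CKO library for Fcrls (43.9 CPM) and for Selplg (34.9 CPM). T replicate 3 was the lowest T library for Slc2a5 (4.58 CPM). Without CKO replicate 5 the log2 fold change of Selplg in TCKO against CKO was 0.71, and without T replicate 3 that of Slc2a5 in TCKO against T was 0.42 (adjusted p = 0.133), which no longer passed.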

How the results depend on the processing

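All 8 genes called in T against WT kept their call and direction in every alternative, as did Fcrls, Olfml3, Cx3cr1 and P2ry13 in TCKO against T. Sall1 lost its call there with only the compared libraries (adjusted p = 0.0542, edgeR), and Gpr34 with only those (adjusted p = 0.0729), without the choroid-rich libraries (0.0649) and without 3 single libraries. With only the compared libraries 4 of the 10 genes were called in TCKO against T, against 7 in the full fit. Slc2a5 lost its call in 17 of 27 alternatives, among them no filter on low counts (adjusted p = 0.139) and RLE factors (0.0504). In TCKO against CKO, where 1 gene was called, DESeq2 and no filter on low counts gave 2, and leaving out 1 library gave 0 to 2. In TCKO against WT, also with 1, DESeq2 gave 2, leaving out the choroid-rich libraries or using only the compared ones gave 0, and leaving out 1 library gave 0 to 1. Without the choroid-rich libraries the interaction had 0 genes called of 3, and leaving out 1 library gave 0 to 4. Some of these fits had fewer libraries, and the cause of these changes was not tested.

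With TMM or similar scaling, reversals of sign concerned values near 0 that were not called. In CKO against WT, Cx3cr1 (0.05) was -0.029 and Selplg (0.01) was -0.073 without the choroid-rich libraries. Leaving out 1 library gave -0.023 to 0.12 for Cx3cr1, -0.078 to 0.089 for Selplg, -0.17 to 0.057 for Gpr34 and -0.16 to 0.028 for Olfml3. In TCKO against CKO, Slc2a5 (0.0046) was -0.017 with limma, -0.0081 with upper-quartile factors, -0.0079 with the stricter filter, -0.0015 with only the compared libraries, -0.061 with GC correction and -0.069 to 0.067 without 1 library. In TCKO against WT, leaving out 1 library gave -0.057 to 0.18 for P2ry12 and -0.060 to 0.23 for P2ry13.

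Outside T against WT the correlations of same-numbered libraries ran from -0.142 to 0.272, and no comparison had all of them above 0.1. Some were larger than values in T against WT, so whether the numbers pair these libraries cannot be told from the correlations. With the replicate block, 0 of the 10 genes were called in TCKO against CKO and 0 in TCKO against WT, also together with GC correction, and Selplg stood at 0.57 (adjusted p = 0.117) and 0.59 (adjusted p = 0.182). Slc2a5 in TCKO against T had an adjusted p of 0.0502 with the block; in TCKO against CKO it stood at -0.030 with block and GC correction, and P2ry12 in TCKO against WT at -0.0019 with the block. Over all genes the block gave 0 calls in CKO against WT, 5 in TCKO against CKO and 3 in TCKO against WT.

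Relative to the pan-microglial genes, replacing the 6 by Csf1r alone turned Fcrls, not called, to 0.24 in T against WT and -0.25 in TCKO against T, and Olfml3, called at 0.38 in TCKO against T, to -0.039. With Csf1r alone 5 genes were called in TCKO against T, against 9. The count in TCKO against CKO (3) was 1 with no filter or with the block and 1 to 4 without 1 library. That in TCKO against WT (4) was 2 with no filter, with the block, without the choroid-rich libraries or with Csf1r alone and 2 to 4 without 1 library. The interaction count (8) was 3 with Csf1r alone.

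Counts over all genes also moved by more than 1.5 times. Without the choroid-rich libraries 2696 genes were called in T against WT (4490 in the full fit), 8 in CKO against WT (2), 1591 in TCKO against T (2388), 12 in TCKO against WT (56) and 378 in the interaction (584). DESeq2 called 114 in CKO against WT, 787 in TCKO against CKO (100), 496 in TCKO against WT and 1263 in the interaction. limma called 1, 59 and 25 in the first 3 of these, and only the compared libraries gave 1, 301 and 16, and 1354 in TCKO against T. No filter gave 252 in TCKO against CKO and 100 in TCKO against WT, and GC correction 63 in TCKO against CKO. Block and GC correction together gave 3 calls in each of TCKO against CKO and TCKO against WT. Leaving out 1 library gave as few as 2934 in T against WT (T replicate 2), 0 to 7 in CKO against WT, 1294 to 3278 in TCKO against T, 11 to 266 in TCKO against CKO, 6 to 67 in TCKO against WT and 298 to 1266 in the interaction. On the relative scale, CKO against WT had 338 with no filter (1) and TCKO against CKO 6060 with Csf1r alone (9107) and 5191 to 10925 without 1 library. Of 1610 alternative values of single genes with TMM or similar scaling, 24 reversed, and of 420 on the relative scale 3. With 4 libraries a genotype and shared WT libraries, the comparisons are not independent of each other.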
